A study of Mus musculus with 2 samples.

Results

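NF-κB is a family of dimeric transcription factors, and the genes described here encode its 5 subunits and 5 proteins listed with them as feedback inhibitors. The members were taken by symbol, as Nfkb1, Nfkb2, Rela, Relb, and Rel for the subunits and Nfkbia, Nfkbib, Nfkbie, Nfkbiz, and Tnfaip3 for the inhibitors, and all 10 were found among the 24091 genes of the deposited table. The table held 2 libraries of polyadenylated RNA from C57BL/6 mice, labelled as primary adipocytes of gonadal fat, the pad beside the reproductive organs. In 1 library the mice had received pelvic irradiation, given in the labels as 7.5 Gy and 5 days without saying whether the dose was daily or total, and in the other they had been sham irradiated. Fat was collected 2 months after radiation in both groups, digested with collagenase, and the floating cells were cultured for 3 days. Both titles also carry the term PBS, whose role is not explained. Age, sex, and the number of mice behind each library are not stated in the labels. The comparison, irradiated against sham, was taken from the labels alone.

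In resting cells, NF-κB dimers are kept in the cytoplasm by IκB proteins. Signals from tumor necrosis factor, interleukin-1, and microbial products activate a kinase complex that marks the IκB proteins for degradation, and the freed dimers enter the nucleus. Several inhibitors are themselves targets of NF-κB, which closes a negative feedback loop. In adipose tissue, the pathway is known for driving the chemokines and cytokines of inflamed fat.

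Values are in FPKM, which counts fragments scaled to gene length and sequencing depth, and the difference of a gene is log2(FPKM + 0.1) for irradiated minus sham. Recovered from the values themselves, the depth was about 30600000 fragments in the sham library and 35000000 in the irradiated library. With 1 library per condition there was no replicate spread and no test, so a difference is given with a 95% interval that covers counting error only. Differences between mice, dissections, and cultures lie outside that interval, and with this design they and the radiation cannot be told apart. The same holds for fewer cells of a type and less RNA per cell.

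The label of the cells was checked against marker genes. Adipoq, the adipocyte hormone adiponectin, was at an FPKM of 0.133 in the sham library and 0.232 in the irradiated library, on 5 and 10 fragments. Plin1, the coat protein of large lipid droplets, was at 0.254 and 0.478, and Lep, the hormone leptin, had 0 and 2 fragments. Of 8 adipocyte markers, 5 did not reach an FPKM of 1 in either library, while Fabp4, a fatty acid binding protein, was at 96.9 in both and Pparg, a regulator of adipocyte formation, at 4.59 and 4.69. The list summed to 220.6 and 264.2, led by Cd36, a fatty acid transporter that macrophages also express. The 8 fibroblast markers summed to 4362 and 3456, led by Col1a1, and the 10 macrophage markers to 611.4 and 651.1, led by Lyz2. Lipe, a lipase of adipocytes, was at 0.84 and 0.846 on 104 and 120 fragments, and Cidec at 0.2299 and 0.2345 on 12 and 14 fragments. Adipoq, Plin1, Lep, Lipe, and Cidec were named after their values were seen. Of the adipocyte markers, Adipoq, Lep, and Cidec had few fragments, Plin1 and Lipe were low, and Fabp4, Pparg, and Cd36 were higher. The higher markers alone do not show how many of the cells were adipocytes. Which cells gave the RNA of each member is not shown by these values.

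The transcripts of the NF-κB subunits and inhibitors were present at nearly the same level in both libraries. All 10 members reached an FPKM of 1, the minimum set for a gene to be counted, as did 11253 of all genes. Of the 10 members, 0 were higher by at least 0.5, a ratio of 1.41, against 4.31% of all genes counted, and 0 were lower by at least 0.5, against 1.44% of all genes. With 10 genes, a count of 0 lies close to these shares and does not set the members apart. The median difference of the members was 0.01 and that of all genes 0.02. The largest difference in either direction was -0.26, for Nfkbie, and 82.3% of all genes differed by that amount or less. A counting interval that lay above 0 was found for 1 member, against 23.8% of all genes, and below 0 for 2 members, against 17.4%.

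**Figure D1:**
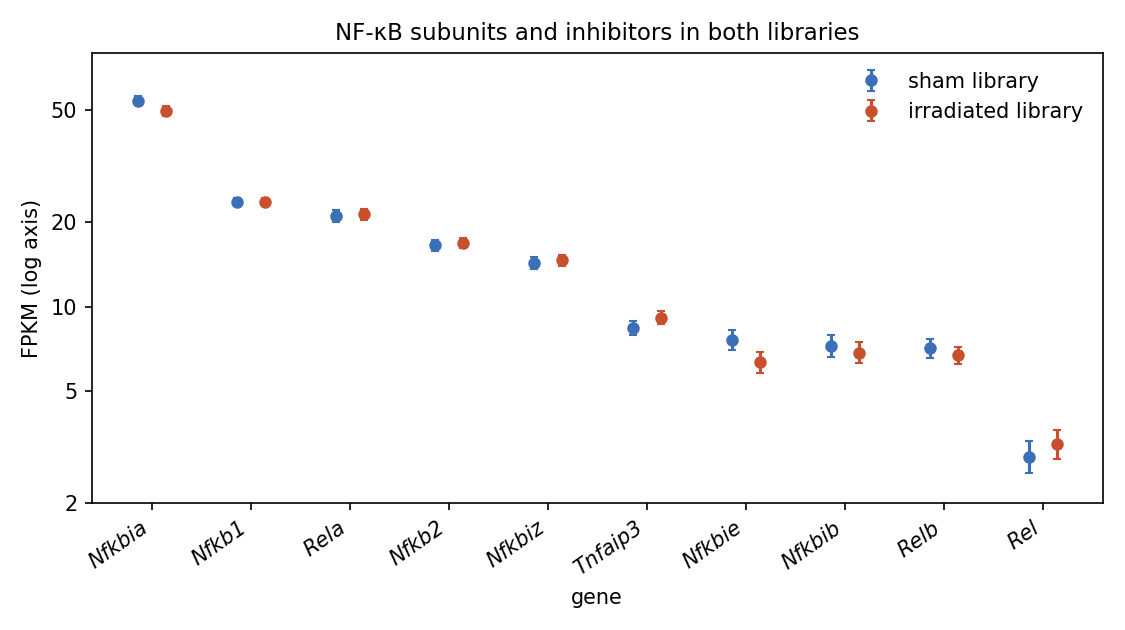
FPKM on a log axis for each of the 10 genes, ordered by the sham library, with sham in blue and irradiated in orange-red. Bars are exact 95% Poisson intervals of the recovered fragments, for counting error only. Nfkbia was highest and Rel lowest in both libraries, and the points of each gene lie close together.

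Coordinates are those of the table, in mouse build mm10. Rela encodes p65, the subunit that carries the main activation domain of the canonical dimer. On chromosome 19 from 5637490 to 5648130, it was at an FPKM of 21.01 in the sham library and 21.3 in the irradiated library, on 1733 and 2011 fragments. Its difference was 0.02, with an interval from -0.07 to 0.11. Nfkb1, on chromosome 3 from 135584655 to 135691547, encodes p105, the precursor of the DNA-binding partner p50. It was at 23.7 in both libraries, on 3362 and 3846 fragments, with a difference of 0.00 and an interval from -0.07 to 0.07. The intervals of both genes of the canonical pair reached no further than 0.11 from 0 on the log2 scale.

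Nfkb2 and Relb encode the subunits of the alternative arm, in which the precursor p100 is processed to p52 and pairs with RelB. Nfkb2, on chromosome 19 from 46304737 to 46312385, was at an FPKM of 16.6 in the sham library and 16.8 in the irradiated library, a difference of 0.02 with an interval from -0.07 to 0.11. Relb, on chromosome 7 from 19606222 to 19629438, was at 7.11 and 6.72, a difference of -0.08 with an interval from -0.23 to 0.07. Neither difference was larger than counting error. Rel, on chromosome 11 from 23741729 to 23770970, encodes c-Rel, a subunit best known from lymphocytes and myeloid cells. It was the lowest member, at 2.93 on 231 fragments in the sham library and 3.24 on 292 fragments in the irradiated library. Its difference of 0.14 had the widest interval of the subunits, from -0.11 to 0.40, and was not detectable at this depth.

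The makeup of the subunit transcripts, compared per length, was also alike. The 5 subunits summed to an FPKM of 71.3 in sham and 71.7 in irradiated cells. Of these sums, Nfkb1 made up 33.2% and 32.97%, and Rela 29.5% and 29.7%. Nfkb2 made up 23.3% and 23.4%, Relb 9.97% and 9.37%, and Rel 4.11% and 4.52%. Nfkb1 and Rela were the most abundant subunit transcripts in both libraries and Rel the least.

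Nfkbia encodes IκBα, the inhibitor that is degraded and remade fastest after stimulation. On chromosome 12 from 55489409 to 55492647, it was the most abundant member, at an FPKM of 54.1 in sham and 49.8 in irradiated cells, on 2602 and 2738 fragments. The irradiated library was lower by 0.12, at 0.92 times the sham value, with an interval from -0.20 to -0.04. By rank, it was gene 1010 and gene 1122 of the 24091 in the table. Nfkbie, on chromosome 17 from 45555700 to 45563168, encodes IκBε, a further inhibitor induced by NF-κB. It was at 7.63 on 567 fragments and 6.35 on 540 fragments, and the irradiated library was lower by 0.26, at 0.833 times the sham value, with an interval from -0.44 to -0.09. These were the 2 members whose interval lay below 0.

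Nfkbib encodes IκBβ, which binds dimers more persistently than IκBα. On chromosome 7 from 28758251 to 28766644, it was at an FPKM of 7.26 in the sham library and 6.86 in the irradiated library, a difference of -0.08 with an interval from -0.26 to 0.10. All 3 cytoplasmic IκB genes were lower in the irradiated library in value, as were 44% of all genes counted, and the interval of Nfkbib included 0. Their sum was 68.98 and 62.98, of which Nfkbia made up 78.4% and 79.01%. The ratio of this sum to the sum of the subunits was 0.968 in sham and 0.878 in irradiated cells. The ratio of Nfkbia to Rela was 2.57 and 2.34. These ratios have no replicate error, and they are ratios of transcripts, not of proteins.

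The remaining genes listed as inhibitors act by other means. Nfkbiz, on chromosome 16 from 55811377 to 55838641, encodes IκBζ, a nuclear protein that binds p50 and is needed for a set of secondary response genes. Its level can therefore not be read as restraint on NF-κB alone. Nfkbiz was at an FPKM of 14.3 in the sham library and 14.6 in the irradiated library, a difference of 0.03 with an interval from -0.06 to 0.12. Tnfaip3, on chromosome 10 from 19000910 to 19015410, encodes A20, an enzyme that edits ubiquitin chains on signaling proteins upstream of the kinase complex. It was at 8.41 on 1180 fragments and 9.15 on 1468 fragments, a difference of 0.12 with an interval from 0.01 to 0.23. Tnfaip3 was the 1 member whose interval lay above 0, and this depended on the scaling. Centring on the median difference of all genes gave 0.10, with an interval from -0.011 to 0.213.

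The order of the levels was nearly the same in both libraries. From the highest, it ran Nfkbia, Nfkb1, Rela, Nfkb2, Nfkbiz, and Tnfaip3, and Rel came last. Neighbors from Nfkbia to Tnfaip3 had Poisson intervals that did not overlap, in either library. In the sham library, Tnfaip3, Nfkbie, Nfkbib, and Relb followed each other with overlapping intervals. In the irradiated library, Nfkbie came after Nfkbib and Relb, again with overlapping intervals, and Tnfaip3 stood clear above them. The position of Nfkbie among its neighbors is therefore not resolved within either library.

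Exons of 2 members overlap genes of the opposite strand in the GENCODE annotation. Nfkb2 shares 299 exon bases with Psd, which was at an FPKM of 0.129 and 0.204, and 531 bases with AC114539.1, a noncoding RNA annotated at a bidirectional promoter and not analysed here. Nfkbib shares 314 bases with Ccer2, at 0.0312 and 0.055, and 42 bases with Sirt2, at 23.2 and 25.4. The library preparation kept strand according to the labels, but no source used here says whether the counting did, so reads of such partners may not be separated.

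The other genes of the pathway are given by role, and the counts past 0.5 in each list are to be read beside the 4.31% of all genes that were higher and the 1.44% that were lower by that amount. In lists this small, 1 gene can be a far larger part than those shares, so a count of 0 or 1 is not read as a result. Among 12 activating ligands, 8 reached an FPKM of 1, with 0 higher by at least 0.5, 1 lower, and a median of -0.01. That gene was Tnfsf11, the cytokine RANKL, at 3.29 in the sham library and 1.52 in the irradiated library, a difference of -1.06 with an interval of the ratio from -1.44 to -0.78. Tnf, encoding the classical activator, was low in both, at 1.57 and 1.49 on 79 and 86 fragments, with a difference of -0.07 and an interval from -0.53 to 0.39. Il33, an alarmin of stromal cells, was the most abundant ligand, at 8.84 and 9.48. Il1a was at 2.67 and 3.00, a difference of 0.16, and Tnfsf12, encoding TWEAK, had the highest difference of the 8 ligands that reached the minimum, 0.19. Tnfsf14, the cytokine LIGHT, had a difference of -0.12. All of these 3 intervals included 0. The 4 ligands that did not reach an FPKM of 1 were Ltb, Il1b, Lta, and Cd40lg.

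Among 15 receptors, 12 reached an FPKM of 1, with 1 higher by at least 0.5, 0 lower, and a median of -0.01. The higher one was Tnfrsf12a, the TWEAK receptor Fn14, at 47.1 in the sham library and 76.5 in the irradiated library, a difference of 0.70 with an interval from 0.61 to 0.80. Il1rl1, the receptor of interleukin-33, was at 7.52 and 10.4, a difference of 0.46. Tnfrsf11a, the RANKL receptor RANK, was at 0.935 and 1.19, a difference of 0.32 with an interval from 0.05 to 0.64, which was 0.18 on the log2(FPKM + 1) scale. Receptors of the classical activators differed in both directions. Il1r1, the interleukin-1 receptor, was at 92.3 and 74.4, a difference of -0.31, its accessory chain Il1rap had a difference of -0.15, and Tlr2, a receptor of bacterial lipoproteins, at 7.06 and 5.40, a difference of -0.38 with an interval from -0.56 to -0.22. Tnfrsf1a, the main tumor necrosis factor receptor, was at 90.4 and 86.7, a difference of -0.06 with an interval from -0.11 to -0.01. Tlr4, the receptor of bacterial lipopolysaccharide, and Tnfrsf1b, a further tumor necrosis factor receptor, had differences of 0.19 and 0.13, with intervals above 0, and were named after these were seen. Of the 12 receptors, 5 had an interval above 0, against 23.8% of all genes, and 4 below, against 17.4%. Tnfrsf13c, Il18r1, and Tlr9 did not reach an FPKM of 1.

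Of 20 adaptors and ubiquitin ligases, 19 reached an FPKM of 1, and all 19 differed by less than 0.5, with a median of 0.02. They ran from -0.34 for Ticam1, the adaptor of TLR3, to 0.30 for Traf5, an adaptor of tumor necrosis factor receptors. Traf2 and Birc3 had differences of -0.12 and -0.10, and Irak2 and Malt1 of 0.17 and 0.23, the last 0.12 on the log2(FPKM + 1) scale. Bcl10, the most abundant of them, was at 26.6 and 27.8, and Traf1 was the 1 adaptor under an FPKM of 1. The 10 kinases and their partners all reached an FPKM of 1 and all differed by less than 0.5, with a median of 0.04. Ikbkb, the catalytic kinase of the canonical arm, was at 2.31 and 2.28, a difference of -0.02. Ikbkg, its regulatory subunit NEMO, had the highest difference of the kinases, 0.26, with an interval from 0.16 to 0.37. Map3k14, the kinase NIK that starts the alternative arm, was at 1.34 and 1.45, a difference of 0.10 with an interval from -0.14 to 0.36. Ikbke and Tab1 had differences of -0.16 and -0.09, and Map3k7, encoding TAK1, of 0.12. Tab2, a TAK1 partner and the most abundant of this list, was at 36.9 and 36.4.

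Among 15 further inhibitors, 13 reached an FPKM of 1, with 0 higher by at least 0.5, 2 lower, against 1.44% of all genes, and a median of 0.03. Tnip1, which encodes the A20 partner ABIN-1, was at an FPKM of 28.2 in the sham library and 19.9 in the irradiated library, a difference of -0.50 with an interval from -0.59 to -0.42. Irak3, a brake on Toll-like receptor signaling, was at 15.5 and 10.9, also a difference of -0.50, with an interval from -0.62 to -0.39. Both lie on the threshold, and on the log2(FPKM + 1) scale, at -0.48 and -0.47, neither reached it. After centring on the median difference of all genes, both were at -0.52. Bcl3, a nuclear IκB protein, was at 15.1 and 11.9, a difference of -0.34. Cyld, a deubiquitinase like A20, had the highest difference of the 13, 0.22, with an interval from 0.14 to 0.31. Nkiras1 and Nkiras2 had differences of 0.14 and 0.11. Nfkbid and Tnip3 did not reach an FPKM of 1 in either library.

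The textbook targets of NF-κB ran from -1.36 to 1.89, in both directions, but the list was chosen with the differences of Cxcl10, Cd80, Csf3, Il6, and Sod2 known, so its spread comes partly from that choice. Of 32 targets, 29 reached an FPKM of 1, of which 6 were higher by at least 0.5, against 4.31% of all genes, 7 were lower, against 1.44%, and 16 lay between, with a median of 0.03. Their median was close to that of all genes although single targets differed by more than 1. Ccl20, Sele, and Csf2 did not reach an FPKM of 1. The lowest difference was that of Nos2, inducible nitric oxide synthase, at 3.98 and 1.49, a difference of -1.36 with an interval of the ratio from -1.65 to -1.19. Saa3, an acute-phase protein, was at 424.5 and 250.6, a difference of -0.76. Csf3, the granulocyte growth factor, was at 2.56 and 1.51, a difference of -0.72 on 106 and 72 fragments. Cxcl5, a neutrophil chemokine and the most abundant target, was at 1884 and 1287, a difference of -0.55. Further targets, chosen after seeing the values, were Cxcl1 and Cxcl2, with differences of -0.39 and -0.64, and Mmp9 and Sod2, with -0.66 and -0.55.

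Other targets were higher in the irradiated library. Ptgs2, the inducible cyclooxygenase of prostaglandin synthesis, was at 37.7 and 80.35, a difference of 1.09 with an interval from 1.04 to 1.14. Cd80, a co-stimulatory ligand for T cells, was at 2.33 and 8.24, and Cxcl10, a chemokine that is also induced by interferon, at 2.59 and 9.89, with differences of 1.78 and 1.89. Lif, Icam1, and Bcl2l1, again chosen after seeing the values, differed by 0.67, 0.56, and 0.55. Vcam1, an adhesion molecule, was at 53.7 in both libraries, and Ccl2, a monocyte chemokine, at 1017 and 922.8, a difference of -0.14 with an interval from -0.17 to -0.11. Both were chosen after seeing the values. The target list had no common direction.

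**Figure D2:**
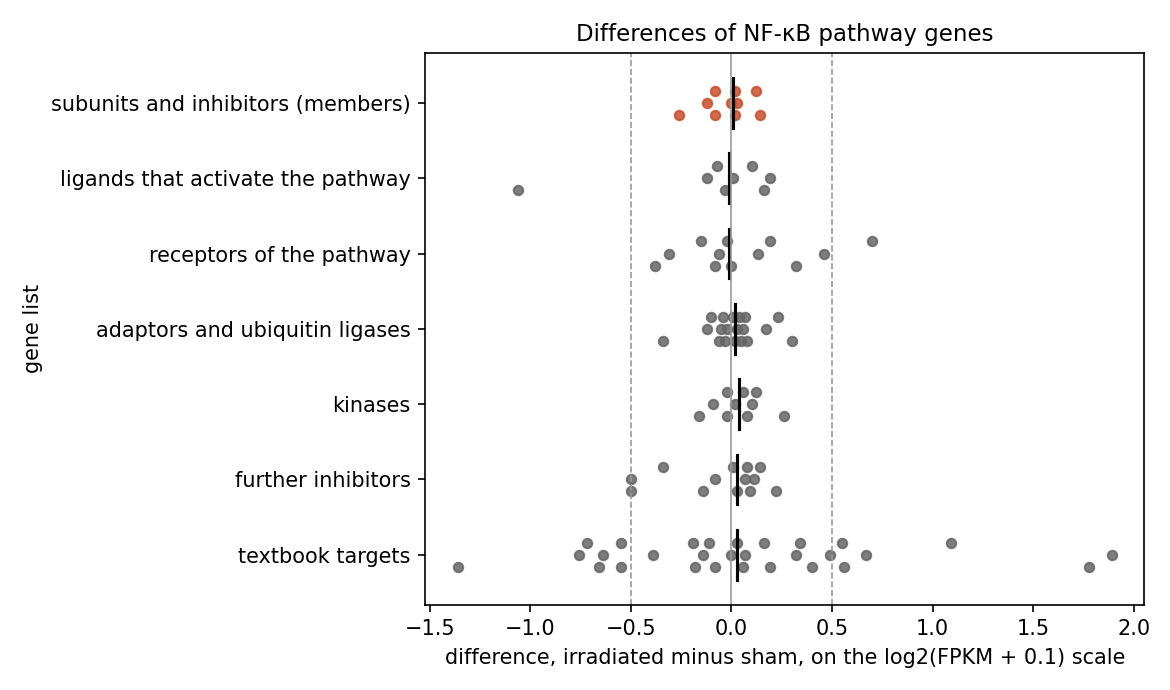
Differences between the libraries on the log2(FPKM + 0.1) scale for the members, in orange-red, and the genes of 6 pathway lists that reached an FPKM of 1, in gray, 1 point per gene. Black bars are medians and dashed lines mark -0.5 and 0.5. The members lie between -0.26 and 0.14 and the textbook targets, chosen with some of their differences known, between -1.36 and 1.89.

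Markers of other cells also differed between the libraries. Among all genes counted, 53.5% had a difference above 0 and 44% below, and 4.31% were higher by at least 0.5. Of the 10 macrophage markers, 8 were higher in the irradiated library, 4 of them by at least 0.5, C1qa and C1qc by 0.80, while the most abundant, Lyz2, was at 442.5 and 410 and Adgre1, encoding F4/80, at 15.7 and 15.5. None was at 0 fragments. Of the 5 mesothelial markers, 4 were higher. Msln was at 0.52 and 2.71 on 34 and 202 fragments, a difference of 2.18 that was 1.29 on the log2(FPKM + 1) scale, and the list summed to 27.2 and 33.96 with its most abundant gene Wt1 at 20.4 and 18.7. None of these was at 0 fragments either. The 5 B cell markers summed to an FPKM of 1.44 and 0.533 on 75 and 37 fragments, with 4 of them lower. Cd79a was the most abundant, and Pax5, named after its value was seen, was at 0 in the sham library. Of these 5 genes, 0 reached an FPKM of 1. The 5 T cell markers summed to 2.15 and 1.14 on 95 and 61 fragments, and all 5 were lower. Cd3g was the most abundant and the only T cell marker to reach an FPKM of 1, and none was at 0 fragments. The intervals of Cd3d and Cd3g lay below 0, and those of Cd3e, Cd4, and Cd8a included 0. Both lists were counted without the minimum, so the shares of all genes counted do not apply to them. Of the 8 fibroblast markers, 5 were lower and none was at 0, with Col1a1 at 1937 and 1428. The part of these cells in the differences of the members, targets, and inhibitors was not tested.

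NF-κB binds a short DNA element described by the κB consensus, and the promoters of the members were searched for it. Windows from 250 bases before to 50 after each annotated gene start were taken from RefSeq for GRCm38.p6, the patched form of the assembly that the labels call mm10. They were found for 7 of the 10 members, Nfkb2, Rela, Rel, Nfkbia, Nfkbib, Nfkbie, and Tnfaip3. The κB consensus, 10 bases searched on both strands with overlapping hits merged, was matched in a window of 5 of these 7 genes, Nfkb2, Rel, Nfkbia, Nfkbie, and Tnfaip3. Some genes have several windows, and 2 windows of Nfkb2 share a match. Counted by window, it was matched in 7 of their 10 windows and in 4.51% of all 32851 windows, and by gene in 5.14% of 27025 genes. The 5 genes with a match had differences from -0.26 to 0.14, and those without, Rela and Nfkbib, 0.02 and -0.08. A match describes letters and is not a measured binding site.

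The windows of the 3 members whose counting interval excluded 0 are printed here, 5′ to 3′ on the strand of the gene, with the matches to the κB consensus in capitals. That of Nfkbia is chr12:55492598-55492897 on the minus strand, with its match 29 bases before the gene start. That of Nfkbie is chr17:45555450-45555749 on the plus strand, with its match 106 bases before the start. That of Tnfaip3 is chr10:19015361-19015660 on the minus strand, with matches 125 and 12 bases before the start, and a second Tnfaip3 window held none.
Nfkbia: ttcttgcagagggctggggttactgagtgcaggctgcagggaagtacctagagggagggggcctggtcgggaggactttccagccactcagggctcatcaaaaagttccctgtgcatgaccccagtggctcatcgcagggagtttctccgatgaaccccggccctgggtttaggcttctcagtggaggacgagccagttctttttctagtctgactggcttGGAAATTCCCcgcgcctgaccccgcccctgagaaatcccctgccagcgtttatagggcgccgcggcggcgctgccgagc
Nfkbie: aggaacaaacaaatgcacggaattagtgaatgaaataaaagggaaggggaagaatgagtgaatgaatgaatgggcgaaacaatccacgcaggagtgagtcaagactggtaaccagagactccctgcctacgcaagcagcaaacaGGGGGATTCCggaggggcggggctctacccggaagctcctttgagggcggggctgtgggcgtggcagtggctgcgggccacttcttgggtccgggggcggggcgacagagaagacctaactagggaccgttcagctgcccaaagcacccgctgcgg
Tnfaip3: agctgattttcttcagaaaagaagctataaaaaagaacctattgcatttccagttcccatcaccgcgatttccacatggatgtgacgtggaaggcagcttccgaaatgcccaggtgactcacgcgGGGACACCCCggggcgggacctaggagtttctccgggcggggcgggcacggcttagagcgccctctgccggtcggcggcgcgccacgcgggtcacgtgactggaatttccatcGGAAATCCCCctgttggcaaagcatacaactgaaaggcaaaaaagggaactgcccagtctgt

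Nfkb2 and Rel held matches in which overlapping hits on both strands merge into 1 stretch of 11 bases. The stretch of Nfkb2 lies at chr19:46304698-46304708 on the plus strand, 39 bases before the gene start at 46304737, and that of Rel at chr11:23771051-23771061 on the minus strand, 92 bases before the start. They are printed as the only stretches among the members that were matched on both strands.
Nfkb2: GGGAATTCCCC
Rel: GGGAAATCCCC

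Among the other lists, the κB consensus was matched in 6 of 14 further inhibitors with a window, 10 of 22 textbook targets, and 3 of 13 receptors. It was matched in 2 of 17 adaptors, 1 of 8 kinases, and 1 of 10 ligands, against 5.14% of all 27025 genes. Of the 9 matched targets that reached an FPKM of 1, 5 had a difference above 0 and 4 below, from -0.64 for Cxcl2 to 1.89 for Cxcl10. Of the 10 unmatched targets that reached it, 8 were above 0 and 2 below, from -0.76 to 1.78, and 53.5% of all genes were above 0. Cxcl10, Cd80, Il6, and Sod2 are among the targets whose differences were known when the list was chosen. Of the 4 matched inhibitors that reached it, Tnip1 and Bcl3 had differences of -0.50 and -0.34, and Cyld and Tax1bp1 of 0.22 and 0.01. The differences of matched genes lay on both sides of 0.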

How the data were processed

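For 2 libraries of 1 condition each, the authors deposited FPKM per gene as log2(FPKM + 0.1) with 2 decimals, beside gene coordinates and lengths. Per the labels, the genome build was mm10. No source used here names the aligner, counting tool, strand setting, or filters. Samples were grouped by their treatment labels.

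FPKM was recovered by undoing the logarithm and subtracting 0.1. The library total was taken as the smallest at which FPKM times length times total gave whole fragments for genes with few fragments. Within a tolerance of 0.12, all 2570 such genes were whole for sham and all 2520 for irradiated. The procedure was tested on simulated data. Intervals of a ratio are exact 95% binomial (Clopper-Pearson) intervals of recovered fragments without the added 0.1, and those of a level are exact Poisson intervals. Both cover counting error only and treat each fragment as independent. PCR copies are not independent molecules, so the intervals may be too narrow. Rounding adds up to 0.01 to a difference. A gene with no fragments may reach 3 fragments, an FPKM of 0.0981 and 0.0858 at 1 kb. Fragment numbers of abundant genes carry the rounding of the deposited values. Genes that reached an FPKM of 1 in neither library were left out of counts of differences. The counts for the B cell and T cell markers are the exception and cover every listed gene.

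The members, the 6 pathway lists, and the 9 marker lists were chosen with earlier results of these data known, among them the differences of Cxcl10, Cd80, Csf3, Il6, and Sod2. By rule, the genes of each list to name were the 3 highest and 3 lowest differences and the most abundant gene, of which not all markers are described. Adipoq, Plin1, Lep, Lipe, Cidec, and other genes that did not reach the minimum were named outside this rule, after their values were seen. So were further genes where the text says so. No gene was ranked by likeness to a member, since 2 libraries give 1 difference per gene. Alternatives covered the pseudocount, scaling, filter, threshold, summary, and motif. The tools were matplotlib 3.10.9, SciPy 1.17.1, pandas 2.3.3, and numpy 2.4.6 under Python 3.11.15.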

Additional observations from a re-analysis of the deposited data

How the results depend on the processing

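No paired analysis was possible because there is 1 library per condition, and none could be left out. The count of members higher by at least 0.5 was 0 under each alternative, namely log2(FPKM + 1), no pseudocount, centring on the median of all genes (0.02), scaling without the 100 most abundant genes (a shift of -0.016), no filter, an FPKM of at least 5, and thresholds of 0.25 and 1. The count of members lower was also 0 except with a threshold of 0.25, where it was 1, Nfkbie. The median difference of the members lay between -0.01, after centring, and 0.0101, without a pseudocount, and was also negative after scaling (-0.00647). The mean difference, taken in place of the median, was -0.021. The ligand median was 0.145 with an FPKM of at least 5, a filter that keeps fewer genes. Under that filter the adaptor median turned to -0.01 and the receptor median was -0.06. The medians of the targets, kinases, and further inhibitors were then 0.06, 0.07, and 0.01. With an older form of the κB consensus, 4 members were matched in place of 5, without Nfkbie. Among 81 genes, the members and those the rule names, the difference left its counting interval for 8 with log2(FPKM + 1) and for 3 each with centring and scaling, for 0 members. Tnip1 and Irak3, at -0.50, were at -0.48 and -0.47 with log2(FPKM + 1), and both at -0.52 after centring and after scaling. On the log2(FPKM + 1) scale Map3k14, Nkiras1, and Tnfsf14 were at 0.06, 0.08, and -0.07. The interval of Tnfaip3 included 0 after centring and after scaling (from -0.007 to 0.216).

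Depth limits Rel most among the members, with 231 and 292 fragments. The single library per condition limits every comparison.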

Other observations

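Other marker lists add to the picture of the culture. The 5 endothelial markers all reached an FPKM of 1, summed to 36.05 in the sham library and 38.8 in the irradiated library, and had a median difference of 0.16, with Kdr highest at 0.31. The 6 dendritic cell markers summed to 4.76 and 4.41, led by Itgax, whose difference was -0.01. The 4 neutrophil markers summed to 2.76 and 1.96, led by S100a8, on 72 and 89 fragments in all. Ly6g had 0 fragments in both libraries, S100a9 had 5 and 0, and Csf3r, with the most fragments of the list, had 42 and 69, a difference of 0.42 with an interval from -0.05 to 1.11. Among the dendritic cell markers, Cd209a had 0 fragments in both libraries and Xcr1 0 and 1. Ly6g, S100a9, Csf3r, Cd209a, and Xcr1 were named after their values were seen.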
